A study of Mus musculus with 9 samples.

Results

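The 6 IFIT genes of the mouse, Ifit1, Ifit2, Ifit3, Ifit3b, Ifit1bl1 and Ifit1bl2, were followed in RNA from isolated cardiomyocytes, which are heart muscle cells, with and without overexpression of the long noncoding RNA Firre. They are 6 of the 55487 genes in the count table, matched by Ensembl identifier to the symbols of the mm10 annotation, and all 6 were among the 15633 genes with enough counts to be tested. The members were chosen by their measured rise in the Firre group, so its levels and differences between that group and either control are given as a description, without a test. One group of 3 libraries carried AAV9-Firre, an adeno-associated virus serotype 9 vector for Firre overexpression, and is called the Firre group. The negative control, also of 3 libraries, carried the AAV9-VC control vector. The third group, labelled only as a blank control, also had 3 libraries. The labels give no strain, age, vector promoter, dose or time after delivery. They call the libraries biological replicates but name no animal or culture, so the p-values reflect variation among these libraries that could be purely technical.

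IFIT proteins, the interferon-induced proteins with tetratricopeptide repeats, are among the most strongly induced products of type I interferon signalling. IFIT1 binds RNA whose cap lacks the methyl group on the first nucleotide, a mark of foreign RNA, and keeps it from being translated. IFIT proteins join each other in complexes, several bind the translation initiation factor eIF3, and IFIT3 has been tied to the adaptor MAVS and the kinase TBK1. Interferon binding to its receptor activates the factor ISGF3, to which STAT2 and IRF9 belong, and ISGF3 binds the interferon-stimulated response element (ISRE) in the promoters of such genes. Heart muscle cells can respond to interferon in this way and IFIT genes are widely used as its readout.

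The 6 genes lie within 99.3 kb of chromosome 19 (mm10), and all are annotated as protein-coding. In order along the chromosome they are Ifit2 (ENSMUSG00000045932, chr19:34550694-34576419, plus strand), Ifit3 (ENSMUSG00000074896, chr19:34583531-34588731, plus strand) and Ifit1bl1 (ENSMUSG00000079339, chr19:34592891-34601956, minus strand). They are followed by Ifit3b (ENSMUSG00000062488, chr19:34607970-34613401, plus strand), Ifit1bl2 (ENSMUSG00000067297, chr19:34617049-34640743, minus strand) and Ifit1 (ENSMUSG00000034459, chr19:34640871-34650009, plus strand). Ifit1 and Ifit1bl2 start back to back, with 127 bases between their annotated starts.

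The stretches just upstream of the starts are shown because the members differ there in matches to the core of the ISRE. All are from RefSeq, build GRCm38.p6, read 5′ to 3′ on the strand of the gene, and cover the 200 bases before the RefSeq start site (for Ifit1 and Ifit1bl2 the shared 127 bases, on the strand of Ifit1). Capitals mark each match to the ISRE core GAAANNGAAA, which here lies on the opposite strand and so is read with TTTC in place of GAAA.
Ifit1 and Ifit1bl2, chr19:34640744-34640870: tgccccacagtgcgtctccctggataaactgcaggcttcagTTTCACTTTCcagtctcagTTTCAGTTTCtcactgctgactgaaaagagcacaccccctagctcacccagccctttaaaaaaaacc
Ifit3, chr19:34583329-34583528: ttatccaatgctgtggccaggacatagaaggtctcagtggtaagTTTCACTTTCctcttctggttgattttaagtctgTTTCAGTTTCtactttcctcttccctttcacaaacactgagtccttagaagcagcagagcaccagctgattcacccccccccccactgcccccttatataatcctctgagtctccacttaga
Ifit3b, chr19:34607757-34607956: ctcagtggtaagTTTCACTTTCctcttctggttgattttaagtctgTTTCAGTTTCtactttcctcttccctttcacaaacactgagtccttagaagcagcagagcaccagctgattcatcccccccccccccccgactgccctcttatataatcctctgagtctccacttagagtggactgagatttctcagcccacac
Ifit1bl1, chr19:34601969-34602168, minus strand: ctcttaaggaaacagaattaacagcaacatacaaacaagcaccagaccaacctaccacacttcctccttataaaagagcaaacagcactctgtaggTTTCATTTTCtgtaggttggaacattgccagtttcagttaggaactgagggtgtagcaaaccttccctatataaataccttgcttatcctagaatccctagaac
Ifit2, chr19:34550494-34550693: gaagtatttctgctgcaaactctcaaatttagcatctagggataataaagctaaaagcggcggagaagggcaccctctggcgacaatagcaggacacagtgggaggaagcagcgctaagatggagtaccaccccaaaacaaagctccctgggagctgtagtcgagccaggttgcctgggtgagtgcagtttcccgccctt

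Both strands were searched, and overlapping matches were counted. In the 300-base RefSeq windows that run from 250 bases before to 50 bases after a start site, the core was present in 3.44% of 32851 windows and present at least 2 times in 0.225% of them. The window at the annotated start held 2 matches for Ifit1 (beginning 104 and 85 bases before the RefSeq start), 2 for Ifit1bl2 (70 and 51 bases), 2 for Ifit3 (156 and 122 bases), 2 for Ifit3b (188 and 154 bases) and 1 for Ifit1bl1 (104 bases). The matches of Ifit1 and Ifit1bl2 are the same bases, read from opposite directions. Those of Ifit3 and Ifit3b lie in copied sequence, in which 167 of 168 aligned bases of the printed stretches were identical. That count leaves out 64 bases set against gaps, the overhanging ends included. Neither RefSeq window of Ifit2 held these letters. The first of them held 1 match to TTCNNNGAA, the core of the GAS element, which serves interferon gamma signalling, 241 bases before the start, and 8.30% of all windows held at least 1 such match. A match is a description of the letters only, and the lack of one does not show that a gene lacks the element.

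Some of these genes are near-copies, which bears on how far their reads can be told apart. The transcripts of Ifit3 and Ifit3b were 97.8% identical over 1700 aligned positions, and those of Ifit1bl1 and Ifit1bl2 were 89.3% identical over 2210. Of all 150-base stretches of the Ifit3 transcript, 296 of 1596 (18.5%) occurred unchanged in a transcript of Ifit3b, and 296 of 1851 (16.0%) for Ifit3b against Ifit3. The shared stretches were fewer between Ifit1 and Ifit1bl2, at 31 of 2507 (1.24%) and 31 of 3218 (0.963%), and none were found for Ifit2 or Ifit1bl1. The deposited table sets aside reads that did not align uniquely, 7.06% to 8.21% of a library, in a line of a form that another program than the featureCounts of the processing notes writes. The labels do not state how shared reads were treated, so the separate values of Ifit3 and Ifit3b are uncertain. Their sum is given too, but reads set aside would be missing from it as well.

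Counts assigned to genes ran from 15591542 to 22697016 per library, and the lowest IFIT value of any library rests on 16 counts. Firre itself averaged 33.8 ± 3.47 CPM over the blank libraries, 33.2 ± 1.05 CPM over those with the control vector and 65.0 ± 4.02 CPM over those with AAV9-Firre (SD, n = 3 each). CPM is the count as a share of the library, scaled by TMM factors and expressed per 1e+06 counts. It was 0.97 higher on the log2 scale in the Firre group than in the negative control (SE 0.07). All 10 cardiomyocyte markers were detected, summing to 34388 to 37262 CPM in the negative control libraries and 51791 to 54724 CPM in those with Firre, and all 10 rose. Markers of other heart cells were present too and were lower with Firre: 9 of 9 fibroblast, 8 of 8 endothelial, 7 of 7 smooth muscle and pericyte, and 5 of 5 epicardial markers fell. Here rose and fell mean an edgeR adjusted p under 0.05 against the negative control. Of all tested genes, 27.5% rose and 28.4% fell in this sense. In bulk RNA, fewer cells of a type and less RNA per cell cannot be told apart.

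Ifit1, whose product binds RNA with a cap that lacks the methyl group on the first nucleotide, showed the largest rise of the 6 genes against the negative control. Its level was 32.6, 23.7 and 20.8 CPM in the blank control libraries, 29.1, 22.02 and 15.6 CPM in the negative control libraries, and 509, 455 and 517 CPM in the Firre libraries. The Firre libraries stood far above all 6 controls, and the control groups overlapped. The difference between the Firre group and the negative control was 4.47 on the log2 scale (SE 0.25), a 22.2-fold difference, and 4.27 (SE 0.24) against the blank control. Ifit1 stood at rank 9 of the 15633 tested genes by fold change against the negative control.

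Ifit3, whose human counterpart stabilises IFIT1, was at 18.9, 14.7 and 15.4 CPM in the blank control, at 19.5, 15.6 and 13.9 CPM in the negative control, and at 217, 209 and 234 CPM in the Firre libraries. Again the controls overlapped and the Firre libraries lay apart. The Firre group was 13.5-fold higher than the negative control, or 3.75 on the log2 scale (SE 0.11), and 3.76 higher than the blank control (SE 0.11). Its copy Ifit3b was lower throughout, at 4.72, 2.97 and 4.06 CPM in the blank control, 5.29, 2.92 and 3.93 CPM in the negative control, rising to 82.2, 68.5 and 83.9 CPM in the Firre libraries. All 3 Firre libraries exceeded every control. The difference for Ifit3b was 4.28 (SE 0.16), or 19.4-fold, against the negative control and 4.34 (SE 0.17) against the blank control. With the counts of both copies summed, the differences were 3.87 and 3.89 (SE 0.14 each).

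Ifit2, which pairs with IFIT3 and has been tied to eIF3 binding and cell death, showed the smallest rise of the 6 against the negative control. It was at 39.2, 36.9 and 36.7 CPM in the blank control, 37.6, 38.8 and 34.7 CPM in the negative control, against 106, 102 and 114 CPM in the Firre libraries. The Firre libraries lay above all controls here as well, and the spread within each group was narrow. The difference was 1.54 on the log2 scale (SE 0.06), a 2.90-fold difference, against the negative control and 1.51 (SE 0.06) against the blank control, where Ifit1bl1 differed by as little.

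Ifit1bl1 and Ifit1bl2, rodent relatives of Ifit1 of less certain function, were scarce in every library. Ifit1bl1 was at 2.43, 1.999 and 2.40 CPM in the blank control, 1.34, 1.83 and 1.58 CPM in the negative control, compared with 6.43, 6.28 and 6.79 CPM in the Firre libraries. Its levels fell into separate ranges in all 3 groups, with the negative control lowest. The Firre group was higher by 2.03 on the log2 scale (SE 0.19) than the negative control and by 1.52 (SE 0.18) than the blank control. Ifit1bl2 was at 1.15, 1.41 and 1.43 CPM in the blank control, 1.54, 1.55 and 0.816 CPM in the negative control, against 5.01, 6.37 and 6.06 CPM in the Firre libraries. The controls overlapped for Ifit1bl2, with negative control replicate 3 the lowest library. Its differences were 2.15 (SE 0.23) against the negative control and 2.11 (SE 0.23) against the blank control. With both genes summed they were 2.09 (SE 0.15) and 1.77 (SE 0.15).

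**Figure D1:**
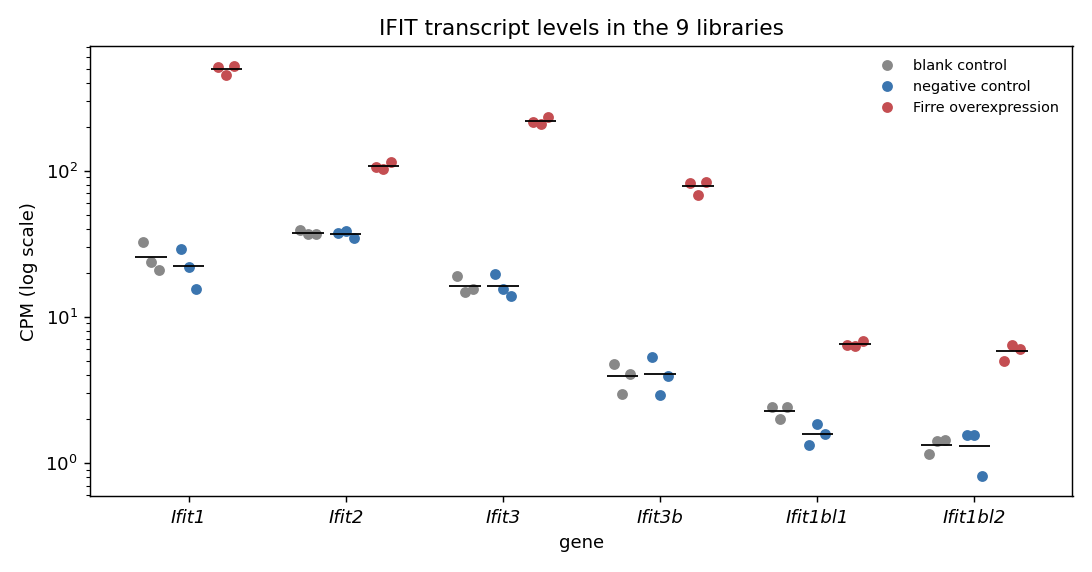
Level of each IFIT gene in the 9 libraries, in CPM on a log axis; points are libraries, coloured by group, and bars are group means. The Firre libraries lie above all 6 controls for each gene, by a wider margin for Ifit1, Ifit3 and Ifit3b than for Ifit2, Ifit1bl1 and Ifit1bl2.

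All 6 genes were called higher in the Firre group against the negative control, where 27.5% of all tested genes were called higher and 28.4% lower, and in all 6 each Firre library exceeded each negative control library, as in 30.8% of all genes. All 6 were called higher against the blank control too, where 27.3% of genes were called higher and 29.5% had every Firre library above every blank library. These values were used to choose the family, and both comparisons share the Firre libraries, so nothing is read from the counts.

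The comparison of the negative control with the blank control did not enter the choice of the family, and it asks whether the control vector alone went with other IFIT levels. None of the 6 genes passed in edgeR's quasi-likelihood test with Benjamini-Hochberg adjustment over all genes. The difference on the log2 scale was -0.20 for Ifit1, with a 95% interval of -0.84 to 0.44 and an adjusted p of 0.888. For Ifit2 it was -0.02 (-0.16 to 0.11, edgeR adjusted p 0.964) and for Ifit3 0.01 (-0.26 to 0.27, edgeR adjusted p 0.994). For Ifit3b it was 0.06 (-0.46 to 0.58, edgeR adjusted p 0.973) and for Ifit1bl2 -0.03 (-0.60 to 0.53, edgeR adjusted p 0.988). The interval was narrowest for Ifit2 and widest for Ifit1.

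Ifit1bl1 was the member with the largest difference between the controls. It was lower in the negative control by 0.51 on the log2 scale, with a 95% interval of -0.96 to -0.06, and every negative control library was below every blank library. The unadjusted p was 0.0274 in edgeR's test and the adjusted p 0.522, so the difference did not pass. Groups failed to overlap in one direction or the other in 13.1% of all tested genes. With the counts of Ifit1bl1 and Ifit1bl2 summed, the difference was -0.31 (SE 0.17). Of all 15633 genes, edgeR called 9 in this comparison (0.0576%), 1 higher and 8 lower, and 1331 had an unadjusted p under 0.05. DESeq2 called 32 genes, and Ifit1, the only IFIT gene to which it gave an adjusted p, was not among them. DESeq2 keeps an adjusted p for genes above a cutoff on the mean level over all libraries, the Firre libraries included. Ifit1 was below Ifit2 in both controls (mean 25.7 against 37.6 CPM in the blank control, 22.2 against 37.0 CPM in the negative control). It passed that cutoff through its Firre level, by which the family was chosen. For the other members the DESeq2 run was no test.

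**Figure D2:**
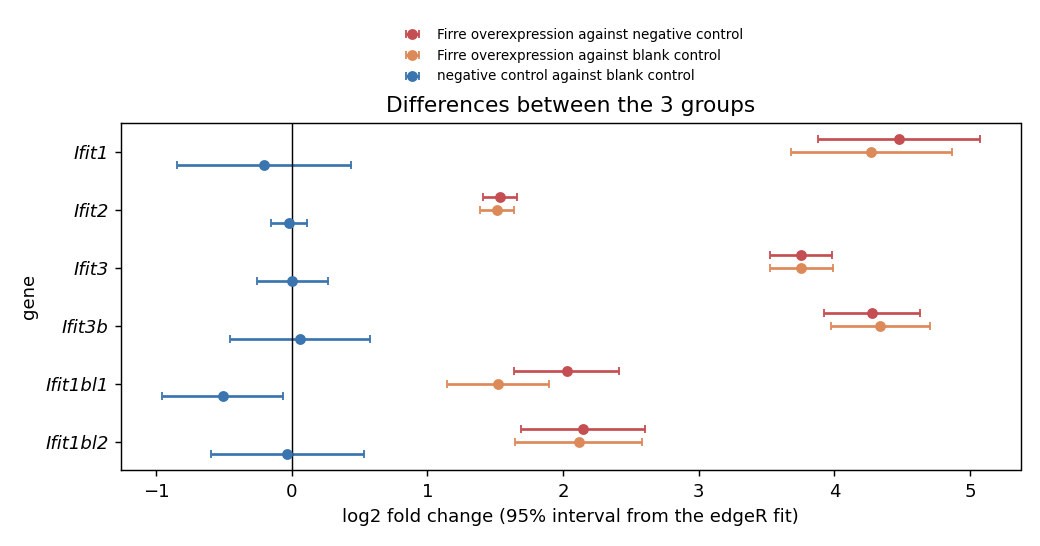
Differences between the groups for each IFIT gene, as log2 fold change on the horizontal axis, with 95% intervals from the edgeR fit as bars. Both Firre comparisons lie between 1.51 and 4.47, while the control comparison lies near 0 for 4 genes, at -0.20 for Ifit1 and at -0.51 for Ifit1bl1.

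The members also differed in how steady they were among controls. Ifit2 varied by 3.64% in the blank control and 5.62% in the negative control, as the coefficient of variation of CPM over 3 libraries, and by 5.87% in the Firre group. Ifit1 varied by 23.9% and 30.4% in the controls and by 6.81% in the Firre group. Ifit3b varied by 22.5% and 29.5% in the controls and by 10.8% with Firre. Ifit3 lay between, at 13.7%, 17.7% and 5.72%. Ifit1bl1 varied by 10.5%, 15.7% and 4.06%, and Ifit1bl2 by 11.8%, 32.4% and 12.2%, so that its spread with Firre was not below that in the blank control. Blank control replicate 1 and negative control replicate 1 were the highest libraries of their groups for Ifit1, Ifit3 and Ifit3b, and negative control replicate 3 was the lowest of its group for Ifit1, Ifit2, Ifit3 and Ifit1bl2. With n = 3 a group these coefficients are rough, and the difference in spread was not tested. Low counts vary more by sampling alone. Each control library held 16 to 33 counts of Ifit1bl2 and 61 to 103 of Ifit3b, and each Firre library 1517 to 1624 of Ifit3b. The part of sampling in these coefficients was not tested.

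Levels of different genes are compared per length, as CPM per kb of annotated exon. In the blank control, Ifit1, Ifit2 and Ifit3 stood at 9.69 ± 2.32, 9.58 ± 0.349 and 9.37 ± 1.28 CPM per kb (SD, n = 3), and their library values overlapped. In the negative control they were at 8.37 ± 2.55, 9.43 ± 0.530 and 9.37 ± 1.66 CPM per kb. The library values of these 3 genes overlapped there too, although Ifit3 was above Ifit1 within each negative control library. Below them came Ifit3b at 1.96 ± 0.442 and 2.02 ± 0.596 CPM per kb, Ifit1bl1 at 1.007 ± 0.106 and 0.701 ± 0.110, and Ifit1bl2 at 0.395 ± 0.0467 and 0.387 ± 0.125, without overlap between these 3 in either control.

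In the Firre group the 6 genes fell into a full order with no overlap between neighbours. Ifit1 was highest at 186 ± 12.7 CPM per kb, followed by Ifit3 at 126 ± 7.21 and Ifit3b at 39.1 ± 4.22. Ifit2 came next at 27.4 ± 1.60 CPM per kb, below Ifit3b, the order of these 2 genes being the opposite of that in the controls. Ifit1bl1 at 2.87 ± 0.117 and Ifit1bl2 at 1.73 ± 0.211 CPM per kb were the lowest.

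The make-up of the family's RNA differed accordingly. As a share of the summed CPM per kb of the 6 genes, Ifit2 made up 30.2% ± 2.69 with the blank, 31.6% ± 4.02 with the control vector and 7.15% ± 0.199 with Firre (SD, n = 3 each). Ifit1 made up 30.02% ± 3.41, 27.2% ± 4.04 and 48.5% ± 0.726. The share of Ifit3 was much closer between groups, at 29.3% ± 0.699, 30.9% ± 0.834 and 32.9% ± 0.853, although its Firre values of 32.0% to 33.7% lay above all controls, which reached 31.6%. Summed over the 6 genes the level was 87.2 ± 10.2, 82.5 ± 11.9 and 912 ± 58.2 CPM.

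**Figure D3:**
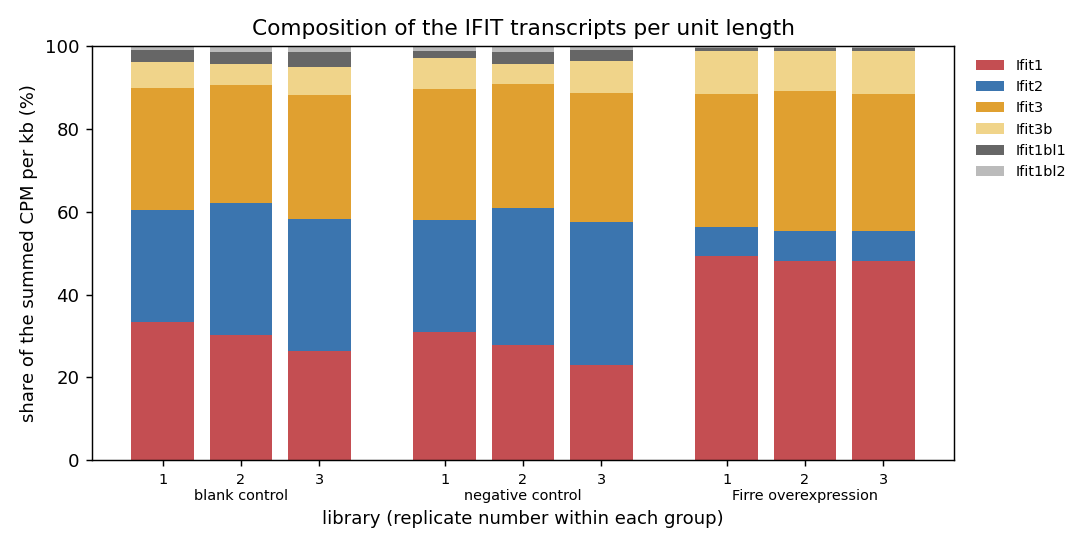
Share of each IFIT gene in the summed CPM per kb of the 6 genes, in percent, with 1 bar per library. In the controls Ifit1, Ifit2 and Ifit3 take similar shares, and in the Firre libraries Ifit1 takes 48.1% to 49.4% and Ifit2 6.92% to 7.31%.

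Ratios of counts within a library do not depend on the scaling between libraries. There were 0.832, 0.643 and 0.566 Ifit1 counts per Ifit2 count in the blank control, 0.774, 0.567 and 0.448 in the negative control, and 4.82, 4.45 and 4.52 in the Firre libraries. The ratio of Ifit3 to Ifit2 was 0.399 to 0.482 in the blank control, 0.399 to 0.520 in the negative control and 2.04 to 2.05 in the Firre libraries, a very narrow range. The ratio of Ifit1 to Ifit3 differed less, with 1.12 to 1.73 Ifit1 counts per Ifit3 count over the 6 controls and 2.17 to 2.35 with Firre.

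Between the copies, Ifit3 had 3.80 to 4.95 counts per Ifit3b count in the blank control, 3.53 to 5.35 in the negative control and 2.64 to 3.06 in the Firre libraries, which lay below all controls. Shared reads between these copies limit this ratio. Ifit1 and Ifit1bl2 start 127 bases apart on opposite strands, yet Ifit1 had 14.2 to 28.4 counts per Ifit1bl2 count in the controls and 71.5 to 102 in the Firre libraries. The ratio of Ifit1bl1 to Ifit1bl2 was 1.41 to 2.11 in the blank control, 0.867 to 1.94 in the negative control and 0.986 to 1.28 in the Firre libraries, so that the negative control and Firre groups overlapped.

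The genes around the family did not all rise with it. Within 250 kb on either side of the 6 genes the annotation has 15 other genes, of which 6 were tested, 8 had no count in any library and 1 had too few counts. Against the negative control, edgeR called lower the death receptor gene Fas (-0.55, SE 0.11, adjusted p 0.000162), the lysosomal lipase gene Lipa (-0.72, SE 0.06, adjusted p 1.56e-12) and the noncoding Gm26902 (-0.99, SE 0.17, adjusted p 1.06e-05). Pank1, an enzyme of coenzyme A synthesis, was called higher (0.68, SE 0.06, adjusted p 1.35e-10). The cholesterol hydroxylase gene Ch25h (-0.08, adjusted p 0.280) and the transporter gene Slc16a12 (0.09, adjusted p 0.350) did not pass. Of all tested genes, 27.5% were called higher and 28.4% lower in this comparison. Gm26902 overlaps Ch25h on the other strand, and the labels do not say whether counting used the strand, so their reads may not be told apart.

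**Figure D4:**
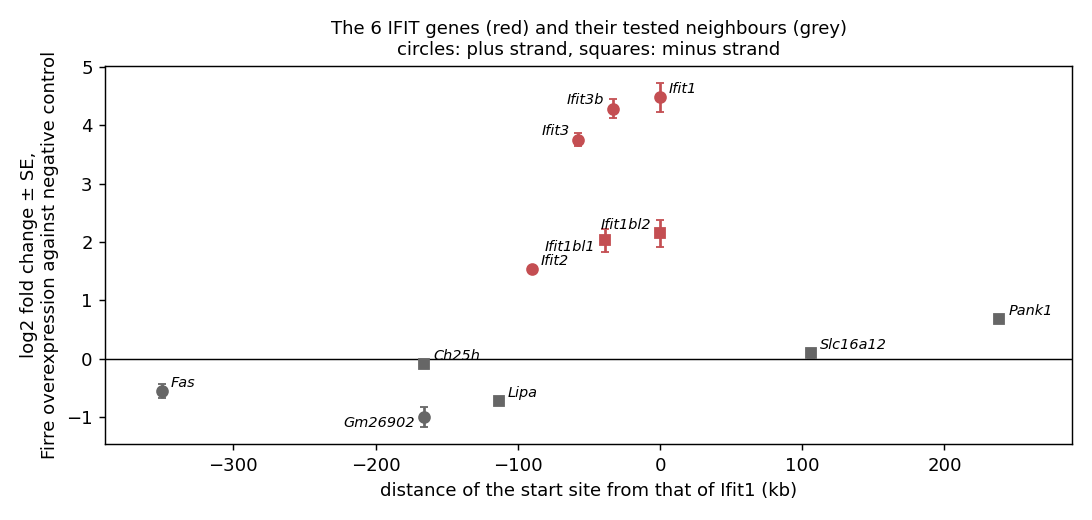
Log2 fold change between the Firre group and the negative control, with SE, for the 6 IFIT genes and the 6 tested neighbours, against the distance of each start site from that of Ifit1 in kb. The IFIT genes lie between 1.54 and 4.47, and the neighbours between -0.99 and 0.68.

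The interferon genes listed were at or near the limit of detection, and reads that did not align uniquely are missing from their counts. Of 12 interferon genes, none had enough counts to be tested and 8 had no count in any library. Ifnb1, the gene of interferon beta, had 0 counts in each of the 6 controls and 5, 1 and 3 counts in the Firre libraries. Against a floor of 3 counts over a group, that is at least 2.96-fold higher than in the negative control and at least 2.64-fold higher than in the blank control. Without Firre replicate 1, which held 5 of the 9 counts, the bounds were 1.95 and 1.73, without negative control replicate 2 the first was 1.92, and without blank control replicate 2 the second was 1.63. The bounds allow for counting error in the controls only and take the Firre counts as exact. Reads carry no molecular identifiers, so counts are not certain to be separate molecules.

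Of the receptor and JAK-STAT genes, 5 of 11 rose and 5 fell against the negative control, with a median of 0.16 on the log2 scale beside 0.00 over all genes, of which 27.5% rose and 28.4% fell. The ISGF3 genes Stat2 and Irf9 rose. Stat2 went from 36.0 ± 2.03 to 137 ± 1.64 CPM (1.93, SE 0.06) and Irf9 from 31.3 ± 1.70 to 79.6 ± 2.53 CPM (1.34, SE 0.07). Ifnar1, a chain of the type I interferon receptor, fell by 0.42 on the log2 scale (SE 0.06, edgeR adjusted p 5.14e-07). The other chain, Ifnar2, fell by 0.20 (SE 0.07, edgeR adjusted p 0.0256), and this call was lost without negative control replicate 1 (-0.19), negative control replicate 3 (-0.18) or Firre replicate 2 (-0.15). Of the negative regulators, 3 of 7 rose and 1 fell (median 0.15), from Socs3 at -0.30 to Usp18, the protease that strips ISG15 from proteins and blocks the receptor, at 3.73.

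Of the RNA and DNA sensors and adaptors, 10 of 14 rose and 2 fell (median 0.91). The cytoplasmic RNA sensors Ifih1 (2.62, SE 0.09), Dhx58 (2.28, SE 0.13) and Ddx58 (1.83, SE 0.06) rose, and Ddx60 was the highest of the list at 3.66. Mavs, the mitochondrial adaptor of these sensors, rose by 0.48 (SE 0.07), from 34.1 ± 1.998 to 47.4 ± 0.894 CPM. Tlr7, an endosomal RNA sensor of immune cells, was the lowest at -3.18, from 1.68 ± 0.281 to 0.187 ± 0.135 CPM. Of the kinases and inducing factors, 2 of 10 rose and 5 fell (median -0.18), beside 27.5% and 28.4% of all genes. The kinase gene Tbk1 fell by 0.35 (SE 0.06), and Ikbke was the lowest at -0.69. Irf3, which drives some IFIT genes directly once phosphorylated, did not pass (-0.04, edgeR adjusted p 0.615), while Irf7 rose by 2.36 (SE 0.05), from 121 ± 2.14 to 621 ± 17.1 CPM.

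Irf7 was also lower in the negative control than in the blank control, at 121 ± 2.14 against 150 ± 4.46 CPM (-0.31, SE 0.05, edgeR adjusted p 0.00419), and the call was lost without blank control replicate 1 (-0.28, adjusted p 0.0579). Ifitm3, which blocks virus entry, was the other pathway gene called in this comparison, at -0.28 (SE 0.06, edgeR adjusted p 0.0423), and this call was lost with library totals alone, with only these groups in the fit, with a replicate block and on leaving out any of 7 of the 9 libraries, blank control replicate 1 among them. No other gene of the pathway lists was called between the controls in this fit, and with DESeq2, with no low-count filter or without blank control replicate 2 the effector genes called lower were 2 in place of 1.

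Of 40 other interferon-stimulated effector genes, 38 rose and none fell against the negative control, beside 27.5% and 28.4% of all genes. Their median was 2.22 on the log2 scale, and Ifih1 among them is also counted with the sensors. The 40 genes ran from Samhd1, a nucleotide hydrolase, at 0.01 to Rsad2, the gene of viperin, at 5.47. The lists of cap methylation and turnover and of eIF3 and the cap-binding translation factors had medians near 0. Of 10 genes of cap methylation and turnover, 3 rose and none fell (median 0.05), a share of rises near the 27.5% of all genes, and without Firre replicate 1 there was 1 that fell. Cmtr1, which adds the methyl group that shields RNA from IFIT1, was the highest at 0.53 (SE 0.13, edgeR adjusted p 0.00101), from 6.66 ± 0.221 to 9.64 ± 1.31 CPM. Of 17 genes of eIF3 and the cap-binding translation factors, 4 rose and 2 fell (median 0.05), neither above the share of all genes (27.5% and 28.4%), and the values lay between -0.33 for Eif4a1 and 0.20 for Eif3j1. These counts became 2 and 4 with library totals alone in place of TMM factors, and 2 genes rose without negative control replicate 1. Of the eIF3 subunits bound by IFIT proteins, Eif3e did not pass (0.01, edgeR adjusted p 0.872, and -0.04 with library totals alone), and Eif3c rose by 0.18 (SE 0.04, edgeR adjusted p 0.000846). These lists were set with the earlier results of these data known.

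**Figure D5:**
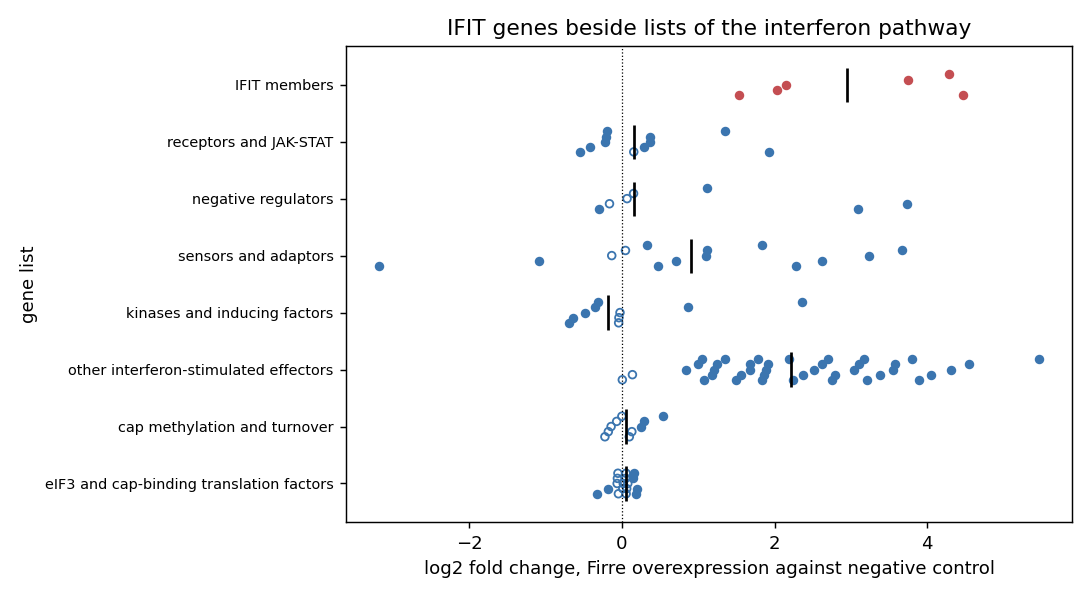
Log2 fold change between the Firre group and the negative control for the IFIT genes (red) and for 7 lists of the pathway (blue). Each point is a gene, filled where called, and bars are medians. Ifih1 is shown in both the sensor and the effector list. The other effectors reach as high as the IFIT genes, while the cap methylation and translation lists stay near 0.

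By the root mean square difference of log2 CPM over the 9 libraries, each gene centred on its own mean over the 6 controls, the genes most like the mean of Ifit1, Ifit2 and Ifit3 among 13768 compared were Rtp4 (0.12), Isg15 (0.12), Igtp (0.18), Zbp1 (0.22), Irgm2 (0.23), Gbp3 (0.24), Usp18 (0.24) and Ifi44 (0.25). The mean of the 3 IFIT genes itself was 3.23 higher with Firre than in the controls on this scale. Rtp4, a chaperone induced by interferon, was at 7.09 to 13.0 CPM in the controls and 77.5 to 80.6 CPM in the Firre libraries. Isg15, the ubiquitin-like modifier, was at 10.7 to 16.5 CPM in the controls and 114 to 124 CPM in the Firre libraries. The distance of Ifit3 from this mean was 0.31, that of Ifit1 0.69 and that of Ifit2 0.99. Each lay farther from it than the 8 genes named, but this largely follows from the choice. The 8 were picked as the smallest distances among 13768 genes, and the mean was taken over 3 genes with unequal rises. With each gene centred on its controls, the distance also depends on the rise with Firre, by which the family was chosen. Nothing is read from this order.

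Markers of immune cells were measured beside these results. The summed level of 12 macrophage markers was 111 to 125 CPM in the blank control, 88.9 to 99.3 CPM in the negative control and 13.8 to 17.1 CPM in the Firre libraries. Against the negative control 11 of 11 tested macrophage markers were called lower, beside 28.4% of all genes, with C1qa at 0 counts in all Firre libraries. Of 6 markers of plasmacytoid dendritic cells, which secrete much interferon, Siglech, Klk1 and Ccr9 were at 0 in all 9 libraries, and Ly6d had 1 count over the blank libraries, 5 over those with the control vector and 0 with Firre. Tcf4 fell by 0.71 and Bst2, itself an interferon-stimulated gene, rose by 1.91. None of the T, B and NK cell markers or of the neutrophil markers had enough counts to be tested, and in the Firre libraries they summed to 0.0903 to 0.304 CPM and 0.157 to 0.405 CPM. The part of these markers and of the markers of other heart cells in the IFIT levels was not tested.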

How the data were processed

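RNA was measured in 9 libraries in 3 groups of 3, grouped by sample title. The authors deposited raw counts per Ensembl gene. Per the labels' protocols, RNA was depleted of ribosomal RNA and sequenced from directional libraries, although the labels also call the molecule polyA RNA. The submitters' processing notes name mm10 with FastQC, Trimmomatic, STAR and featureCounts, versions and counting options being not given in the sources used here. Lines of reads assigned to no gene held 16.3% to 17.4% of counts and were left out. Of 55487 identifiers, 55141 matched GENCODE on mm10.

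All 9 libraries were fitted together with edgeR 4.0.16 in R 4.3.3 (TMM, filterByExpr with minimum count 10 and minimum total 15, robust quasi-likelihood F test, 6 residual degrees of freedom), with Benjamini-Hochberg adjustment over 15633 genes and a threshold of 0.05. The SE was the size of the log2 fold change divided by the root of F. Replicates differed beyond sampling noise (chi-square per degree of freedom 3.27 to 7.39). The scripts were tested on simulated data. DESeq2 1.42.0, other scaling, no filter, a replicate block, omitted libraries and summed copies were alternatives. The members, lists and named genes were chosen with earlier results of these data known; the named genes are the 6 members, Firre, the interferon pathway genes tied to IFIT proteins, the ends of each list, the neighbours within 250 kb and the 8 genes of most similar pattern (mean of at least 1 CPM, pseudocount 0.01 CPM). A gene of the lists is not reported here.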

Additional observations from a re-analysis of the deposited data

How the results depend on the processing

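None of the 6 IFIT genes was called between the controls under any alternative run. The DESeq2 run gave an adjusted p for Ifit1 alone, which passed its cutoff through the Firre level. For the other members that run was no test. In the Firre group, by whose rise they were chosen, their differences from the negative control ranged from 4.27 to 4.71 for Ifit1, 1.48 to 1.57 for Ifit2, 3.65 to 3.89 for Ifit3, 3.87 to 4.52 for Ifit3b, 1.92 to 2.15 for Ifit1bl1 and 1.91 to 2.30 for Ifit1bl2, the lowest for Ifit3b being that of the summed copies. The count of genes called between the controls was unstable: 9 in edgeR, 32 with DESeq2, 98 with no low-count filter and 0 to 55 when 1 library was left out, 0 being without blank control replicate 1 and 55 without blank control replicate 2; the cause was not tested. With the replicate number as a block it was 7, and the counts against the negative and blank controls were 8592 and 8586 beside 8747 and 8796. No pairing by number was seen over the tested genes. Same-numbered libraries correlated by -0.04 to 0.03 in their deviations from group means, and 0 libraries correlated best with their own number in both other groups. The labels state no pairing, and these correlations cannot show that there was none.

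Small differences between the controls changed sign when 1 library was left out, with ranges of -0.0556 to 0.0236 for Ifit2, -0.14 to 0.12 for Ifit3, -0.18 to 0.26 for Ifit3b, -0.18 to 0.21 for Ifit1bl2, -0.0032 to 0.0554 for Tbk1, -0.0204 to 0.0477 for Ifnar1, -0.127 to 0.0142 for Ddx58, -0.189 to 0.0195 for Ifih1, -0.160 to 0.0133 for Dhx58, -0.102 to 0.0508 for Firre, -0.0406 to 0.0386 for Stat2 and -0.0588 to 0.1199 for Cmtr1. Against the negative control Eif3e ranged from -0.023 to 0.068 and was -0.0434 with library totals alone. Depth limits Ifit1bl1 and Ifit1bl2 most, at 16 to 42 counts in each control library.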
